A study of Mus musculus with 8 samples.

Results

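The genes described here encode the enzymes, adaptors and proteasome subunits of the ubiquitin system. They were taken by symbol, from every probe set of the Affymetrix 430B array that the platform annotation pairs with exactly 1 gene symbol beginning with Ube2, Usp, Fbxo, Fbxl, Fbxw, Trim, Klhl, Rnf, Cul or Psma to Psmg followed by a number. This gave 215 genes and 333 probe sets, of 9607 genes and 14661 probe sets with 1 symbol. The rule reads names, and 6 of the genes were counted in no family. Some of these share only the name, such as Psmc3ip, a partner protein of meiotic recombination, and Usp6nl, a regulator of Rab proteins.

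The tissue was brain of T9H heterozygotes, mice in which chromosomes 7 and 15 have exchanged parts by translocation. In the paternal-7 samples proximal chromosome 7 was duplicated from the father and proximal chromosome 15 from the mother, and in the maternal-7 samples the parental origins were exchanged. Each duplication was sampled in neonatal cortex, which the labels also call forebrain, in neonatal cerebellum, and in whole embryonic brain 15.5 and 13.5 days after conception (days post coitum, dpc). Each of these 4 contexts had 1 array for either duplication. Neonatal brain below means cortex and cerebellum together, whereas the embryonic samples were whole brain. Stage and region therefore cannot be told apart between the neonatal and the embryonic samples. All 8 samples carried T9H and a duplication, and a brain without either was not analysed here.

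Ubiquitin is a small protein that is activated by an E1 enzyme, passed to an E2 conjugating enzyme (Ube2) and attached to a target by an E3 ligase. RING ligases (Rnf, Trim) bring the E2 to the target directly, whereas cullin ligases are modular, with F-box proteins (Fbxo, Fbxl, Fbxw) as target receptors of the Skp1 and Cul1 complex and Klhl proteins as receptors of Cul3. Deubiquitinases (Usp) remove the tag, and the proteasome degrades proteins that carry chains of it. In the developing brain the system limits the division of progenitors through the anaphase-promoting complex, and in neurons it shapes axons and synapses.

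Array medians lay between 229.8 and 285.7 signal units, and testing needed a signal over the median of the array on 2 or more of the 8. Of the members, 245 probe sets (73.6%) of 161 genes were tested, against 58.7% of all probe sets, and 54 genes had no tested probe set, among them Cul9, Psmb8 and Usp44. Differences are given on the log2(signal + 58.5) scale with the standard error after ±, and a difference is called where its adjusted p in limma was below 0.05. There was no replicate within a context and duplication, so the error came from departures from additivity of context and duplication. Of the cortex markers, 5 of 6 tested probe sets were called higher in cortex than in cerebellum, with none lower. Of the cerebellar markers, 1 of 4 tested probe sets, that of Tfap2b, was called lower in cortex. Their median was -1.22, and 1 probe set lay above 0, uncalled. Markers of microglia, endothelium and blood had 0 genes on the array, and of 4 muscle markers Ckm was there, with 722 on the paternal-7 cortex array and 125.6 to 292.4 on the others.

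Between the neonatal and the embryonic contexts, 82 of the 245 tested member probe sets (33.5%) were called, with 44 higher and 38 lower in neonatal brain. Among all 13221 tested probe sets 30.7% were called, 14.3% higher and 16.4% lower, so the share of members was near that of the array. The median difference was -0.04 for members and -0.16 for all tested probe sets. The split depended on the scaling, since centring each array on its median moved the median of all probe sets to 0.02, and the members' calls to 61 higher and 20 lower (75.3% higher, against 53.7% without centring, and for all probe sets 69.4% against 46.5%). The arrays of the stages did not overlap in 43 tested members higher in neonatal brain (17.6%, against 11.8% of all tested probe sets) and in 41 lower (16.7%, against 16.5%). No member call changed sign when any 1 array was left out, and 24 of the 44 higher and 14 of the 38 lower calls held in each of the 8 such runs. Without the paternal-7 cortex array 26 were called higher and 16 lower, and without the paternal-7 cerebellum array 28 and 19. The lower calls were 23 without maternal-7 cortex, 24 without maternal-7 cerebellum and 22 without paternal-7 at 13.5 dpc.

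**Figure D1:**
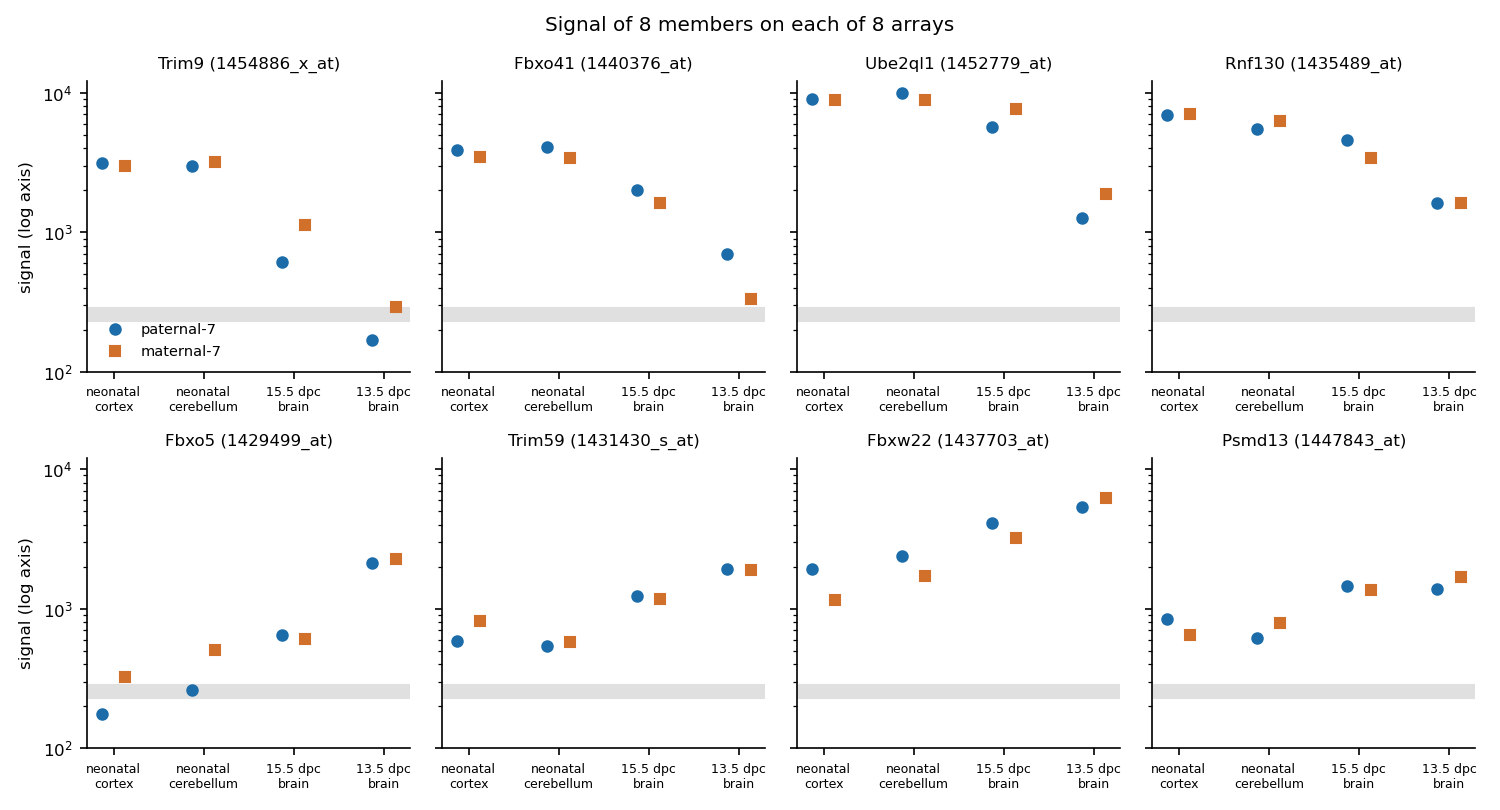
Signal of 8 member probe sets on each array (log axis), with paternal-7 as circles and maternal-7 as squares and the neonatal contexts left of the embryonic ones; the grey band spans the array medians, 229.8 to 285.7. The upper 4 genes were higher and the lower 4 were lower on every neonatal array than on every embryonic array.

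The TRIM ligases, RING proteins with a tripartite motif, had the largest share of calls among the larger families (51.9%, against 30.7% of all tested probe sets). Of 27 tested probe sets 10 were called higher, of 8 genes, and 4 lower, of 4 genes, with 12 and 2 probe sets after median centring. Trim9, a neuronal ligase that restrains axon branching downstream of netrin, had the largest difference of any member. Its brightest called probe set gave 3129 and 2988 in cortex (paternal-7, maternal-7), 2965 and 3190 in cerebellum, against 613.3 and 1124 at 15.5 dpc and 170.1 and 291.5 at 13.5 dpc. The lowest neonatal array was thus above the highest embryonic one, with a difference of 2.64 ± 0.18 (adjusted p = 0.000601). Another Trim9 probe set was below the array median on each embryonic array and at least 3.13-fold higher in neonatal brain, and a dimmer one rose by 1.55 ± 0.33. The remaining tested probe set, at 0.62 ± 0.21, was not called (adjusted p = 0.0628).

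Trim67, the closest relative of Trim9, had 3281 and 2854 in cortex and 1555 and 2213 in cerebellum, against 1121 and 1352 at 15.5 dpc and 427.9 and 781.3 at 13.5 dpc. It rose by 1.43 ± 0.18, again without overlap of the stages. Trim66, a chromatin reader, was at least 1.15-fold higher in neonatal brain, where the cerebellar arrays gave 536.8 and 445.4 and the cortical arrays, below the array median, 195.2 and 200.1. Trim7, a ligase that binds glycogenin, was called higher (adjusted p = 0.00195), with 128.8 to 282.1 on neonatal arrays, against 29.5 to 54.5 on embryonic arrays, all under the array medians, so no fold is given. Trim37, a centriole-associated ligase, rose by 0.97 ± 0.13. The TRIM gene with the largest fall was Trim59, a membrane-anchored ligase, with 583.6 and 814.1 in cortex and 538.7 and 575.7 in cerebellum, against 1235 and 1182 at 15.5 dpc and 1921 and 1882 at 13.5 dpc. It fell by 1.22 ± 0.14 (difference -1.22) with no overlap between stages.

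F-box receptors had 5 higher and 12 lower calls of 44 tested probe sets (38.6%, against 30.7% of all tested probe sets). Their median was -0.21, close to the -0.16 of all probe sets. After median centring, however, 9 were called higher and 7 lower. Fbxo5, also called Emi1, an inhibitor of the anaphase-promoting complex that lets cells enter S phase and mitosis, had the largest fall of any member. It gave 175.1 and 326.4 in cortex and 259.6 and 508 in cerebellum, against 649.1 and 603.1 at 15.5 dpc and 2115 and 2284 at 13.5 dpc. All neonatal arrays were below all embryonic ones, and the difference was -1.80 ± 0.19 (adjusted p = 0.00167). Fbxo30, known from muscle wasting and chromosome condensation in mice, was called lower in 3 of its 4 tested probe sets, at -1.21, -1.07 and -0.93, and the remaining one was at -0.51. Fbxl7, a receptor for Aurora A, fell by 0.90 ± 0.15 in its bright probe set, and in a dim one was at least 1.22-fold lower in neonatal brain.

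Fbxw22 fell by 1.36 ± 0.18, and Fbxw27 was at least 1.27-fold lower in neonatal brain. Both belong, with Fbxw16 and Fbxw18, to an expanded group of closely similar mouse genes on chromosome 9, so their signals may be shared between copies. The Fbxw27 call was lost without 6 of the 8 arrays, with a largest adjusted p of 0.122, and under 5 other settings. Fbxo41, a neuronal F-box protein, was the F-box gene with the largest rise. Its less variable probe set had 3847 and 3466 in cortex and 4080 and 3421 in cerebellum, against 1989 and 1624 at 15.5 dpc and 699.6 and 329.6 at 13.5 dpc, without overlap (1.90 ± 0.17, adjusted p = 0.00108). Its other probe set rose by 1.51 ± 0.31, with overlapping arrays. Fbxl16, a brain-rich receptor with leucine-rich repeats, gave 6702 to 8451 on neonatal arrays, against 1876 to 4096 on embryonic arrays, and rose by 1.33 ± 0.18.

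The promoters of Fbxo5 and Trim59, the F-box and TRIM genes with the largest fall, and of Trim9 and Fbxo41, the TRIM and F-box genes with the largest rise, are shown from 250 bases before to 50 after the start (RefSeq, build GRCm38.p6, all on the minus strand of the chromosome, written 5′ to 3′). Fbxo5 lies at chr10:5805416-5805715, Trim59 at chr3:69044693-69044992, Trim9 at chr12:70347565-70347864 and Fbxo41 at chr6:85502945-85503244. Capitals mark the cell cycle homology region (CHR, letters TTTGAA) and the CCAAT box, each searched on both strands; no match overlapped another.
Fbxo5: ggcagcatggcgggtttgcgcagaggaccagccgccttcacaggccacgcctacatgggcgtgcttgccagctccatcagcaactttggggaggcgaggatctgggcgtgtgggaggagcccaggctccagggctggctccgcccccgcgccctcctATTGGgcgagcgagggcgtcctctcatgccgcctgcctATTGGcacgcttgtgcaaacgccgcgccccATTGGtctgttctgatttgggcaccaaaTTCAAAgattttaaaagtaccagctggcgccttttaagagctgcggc
Trim59: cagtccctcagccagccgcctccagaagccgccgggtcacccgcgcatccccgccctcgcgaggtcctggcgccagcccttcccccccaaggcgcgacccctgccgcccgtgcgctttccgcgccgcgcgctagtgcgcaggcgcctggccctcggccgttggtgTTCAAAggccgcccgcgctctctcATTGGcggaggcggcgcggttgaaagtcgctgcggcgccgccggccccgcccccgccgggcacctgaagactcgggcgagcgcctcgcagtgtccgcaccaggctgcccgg
Trim9: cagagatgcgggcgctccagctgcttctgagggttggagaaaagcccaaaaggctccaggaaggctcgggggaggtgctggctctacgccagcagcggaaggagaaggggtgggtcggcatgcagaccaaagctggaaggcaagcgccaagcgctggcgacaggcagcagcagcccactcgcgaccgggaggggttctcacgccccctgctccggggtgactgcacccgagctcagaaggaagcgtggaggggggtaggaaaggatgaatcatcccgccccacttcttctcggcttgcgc
Fbxo41: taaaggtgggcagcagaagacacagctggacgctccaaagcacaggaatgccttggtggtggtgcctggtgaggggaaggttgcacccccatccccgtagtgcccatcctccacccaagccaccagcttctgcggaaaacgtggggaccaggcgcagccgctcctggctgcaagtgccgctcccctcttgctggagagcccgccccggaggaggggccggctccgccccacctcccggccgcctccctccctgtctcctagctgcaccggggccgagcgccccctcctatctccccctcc
The Fbxo5 window held 1 CHR and 3 CCAAT matches and the Trim59 window 1 of each, whereas the Trim9 and Fbxo41 windows held 0 of both and 0 of the TATA box letters TATAAA, which were searched in the same way. Of 24 genes called lower in neonatal brain with a window, 3 (12.5%) held the CHR letters and 11 (45.8%) CCAAT. Of 29 genes called higher, 1 (3.45%) held CHR and 8 (27.6%) CCAAT. Among the 131 tested members with a window the shares were 9.92% and 32.1%, and the difference between the groups was not tested. Over the 27025 genes with a window the shares were 18.1% for CHR, 37.9% for CCAAT and 14.2% for TATAAA. Windows were found for 177 of the 215 members, and these matches are letters only.

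Other RING proteins had 6 higher and 5 lower calls of 51 tested probe sets (21.6%, against 30.7% of all tested probe sets). Their median was -0.07, and 10 were called higher and 1 lower after median centring. Rnf130, a ligase of the Goliath family, had 6952 and 7002 in cortex and 5480 and 6209 in cerebellum, against 4610 and 3387 at 15.5 dpc and 1629 and 1628 at 13.5 dpc. This probe set, its brightest, rose by 1.31 ± 0.15 without overlap of the stages. Rnf180, a membrane-bound ligase reported to act on monoamine oxidase A in mice, gave 1689 to 1906 on neonatal arrays, against 243 to 1012 on embryonic arrays (1.5 ± 0.20). Rnf122 fell by 0.99 ± 0.14. Rnf168, which marks histone H2A at DNA breaks, was called lower in 1 of its 2 probe sets, at -0.55 ± 0.14, and that call was lost without 7 of the 8 arrays, with a largest adjusted p of 0.129, and under quantile normalization, median centring and no filter.

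Among E2 enzymes 4 probe sets were called higher and 2 lower of 23 tested (26.1%, against 30.7% of all tested probe sets). After median centring 5 were called higher and 0 lower. Ube2ql1, a member of the Ube2q class, had 8960 and 8906 in cortex and 9870 and 8836 in cerebellum, against 5642 and 7569 at 15.5 dpc and 1260 and 1873 at 13.5 dpc. It rose by 1.5 ± 0.17, and its dim second probe set did not (-0.22 ± 0.34, adjusted p = 0.645). Ube2n and Ube2v2, which form a dimer that builds ubiquitin chains used for signalling rather than degradation, rose by 0.95 ± 0.14 and 0.78 ± 0.13. Both lower E2 calls were of Ube2g1, an enzyme of protein degradation at the endoplasmic reticulum, at -0.53 and -0.50 (chosen after its values were seen).

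The cullin scaffolds were represented by Cul3 and Cul5, as Cul9 was not tested. Cul3 rose in both probe sets. The less variable one gave 3605 and 4184 in cortex and 3443 and 3921 in cerebellum, against 3020 and 2801 at 15.5 dpc and 2027 and 2017 at 13.5 dpc, a difference of 0.63 ± 0.13 without overlap, and the other gave 0.86 ± 0.20. These calls were lost without 3 and without 4 of the 8 arrays, with largest adjusted p of 0.0676 and 0.091, and the call of the less variable one also under quantile normalization. Cul5, the scaffold of SOCS-box ligases, had 3 probe sets at 0.39, 0.32 and 0.18, none called. The Klhl receptors of Cul3 had 7 higher and 4 lower calls of 33 (33.3%, against 30.7% of all tested probe sets). Their median was 0.10, and 10 were called higher and 4 lower after median centring. Klhl18, a Cul3 receptor for Aurora A, rose in both probe sets, by 1.21 ± 0.28 and 0.83 ± 0.13. The first of these calls was lost without 5 of the 8 arrays, with a largest adjusted p of 0.0854.

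Deubiquitinases had 8 higher and 7 lower calls of 46 tested probe sets (32.6%, against 30.7% of all tested probe sets). After median centring 11 were called higher and 4 lower. Usp7, which stabilises Mdm2 and p53, showed the largest of these differences in a single probe set, with 879.1 and 890.9 in cortex and 603.6 and 870.5 in cerebellum, against 220.6 and 146 at 15.5 dpc and 222.1 and 201.2 at 13.5 dpc. Its embryonic signals were below the array medians, and it was at least 2.96-fold higher in neonatal brain. The 4 other Usp7 probe sets, of which the brightest gave 3424 to 4202 in neonatal and 3033 to 4173 in embryonic brain, lay between -0.13 and 0.28 and were not called. Usp32, a membrane-anchored deubiquitinase, rose by 0.79 ± 0.14 in its bright probe set, and another was at 0.05 ± 0.18. The third was called higher (adjusted p = 0.00425), with 217.1 to 348.7 on neonatal arrays, against 27.8 to 162.4, all below the array medians, on embryonic arrays, and no fold is given. Usp15, a regulator of receptor signalling that was picked after its values were seen, was called in 3 of 4 probe sets, at 1.2, 0.89 and 0.80, and the other was at -0.08. Usp40 fell in 2 of 4 probe sets, by 1.06 ± 0.14 and by 0.99 ± 0.15. Usp3, which removes ubiquitin from histone H2A, fell by 0.90 ± 0.14 in 1 of 3.

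The array held 15 proteasome genes, of which 7 had a tested probe set. All 9 of their probe sets were below 0, except that Psmd2 was above it under quantile normalization and median centring. Among all tested probe sets 38.1% were above 0. The proteasome median was -0.37, against -0.16 for all probe sets. Of the 9 probe sets 3 were called lower and 0 higher (33.3%, against 30.7% of all tested probe sets). After median centring 1 was called lower and 0 higher. Psmd13, a subunit of the proteasome lid, had 839.4 and 650.1 in cortex and 616.2 and 791.3 in cerebellum, against 1461 and 1361 at 15.5 dpc and 1383 and 1699 at 13.5 dpc. The stages did not overlap, and the difference was -0.98 ± 0.16. Its second, dim probe set was at least 1.38-fold lower in neonatal brain, and that call was lost without 4 of the 8 arrays (largest adjusted p = 0.0708) and under quantile normalization and median centring.

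Psmb5, the chymotrypsin-like catalytic subunit of the core, had 8197 and 8091 in cortex and 11100 and 9318 in cerebellum, against 12870 and 14010 at 15.5 dpc and 11250 and 11640 at 13.5 dpc. It was called at -0.44 ± 0.13 (adjusted p = 0.0454), close to the threshold, and the call was lost without any 1 of the 8 arrays, with a largest adjusted p of 0.149, and after median centring, where the difference was -0.27 (adjusted p = 0.22). The bright probe sets of the core subunit Psma1 and the ATPase Psmc5 were at -0.37 ± 0.13 and -0.23 ± 0.14, uncalled. Psma3 was not called (adjusted p = 0.0525), with signals of 61.4 to 211 on neonatal arrays and 126.4 to 535.6 on embryonic arrays. Psmd2, at -0.06 ± 0.38, turned to 0.11 under quantile normalization. Psmg2, a chaperone of proteasome assembly, was at -0.26 ± 0.14.

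**Figure D2:**
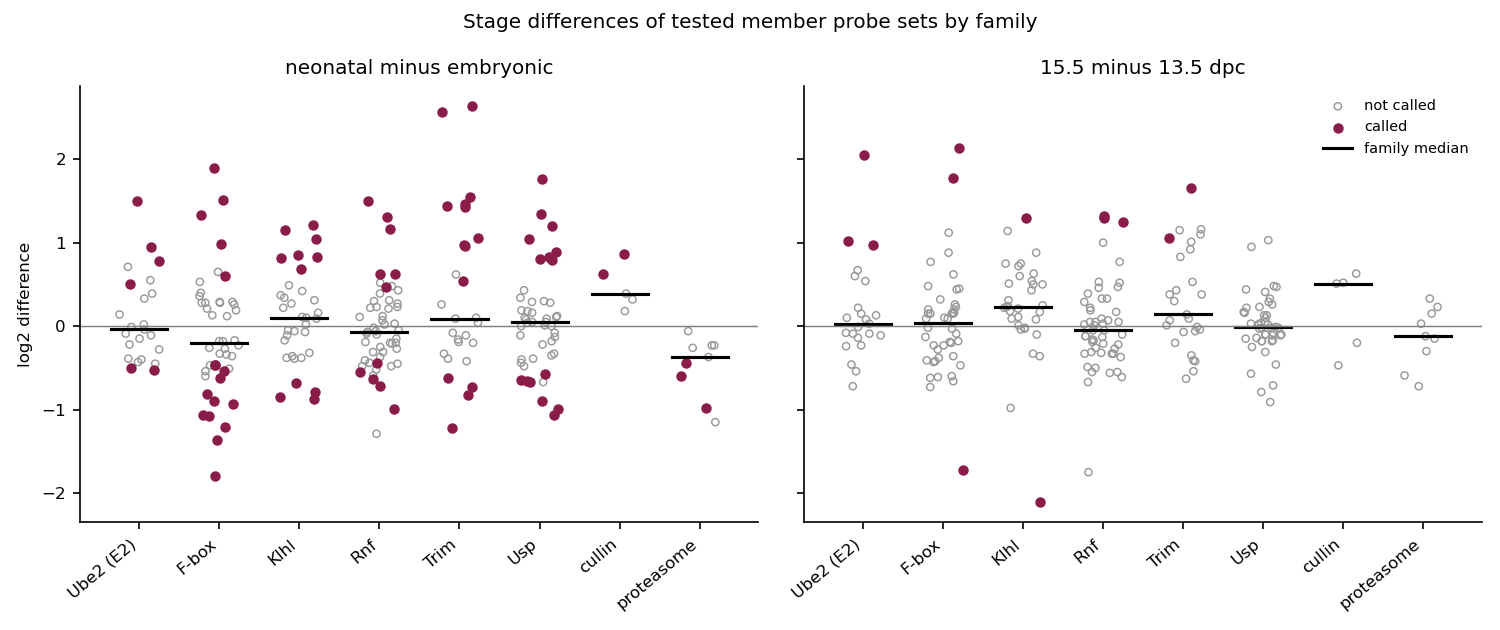
Log2 differences of the tested member probe sets by family, for neonatal minus embryonic (left) and 15.5 minus 13.5 dpc (right); filled points were called, open points were not, and bars are family medians. The proteasome probe sets all lie below 0 in the left panel with a median of -0.37, and the median of the F-box proteins is -0.21. Among all tested probe sets 38.1% were above 0 and the median was -0.16. Psmd2 was above 0 under quantile normalization and median centring.

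A list of members known from neurons or enriched in brain was chosen with earlier results of these data in hand. It had 11 called higher, of 8 genes, and 1 lower of 22 probe sets (12 genes). Among all tested probe sets 14.3% were called higher and 16.4% lower. The median of the list was 0.61, with 13 higher and 0 lower calls after median centring. Trim9, Fbxo41, Ube2ql1 and Trim67 led the list. The lower call was a dim probe set of Trim2, a ligase of the neurofilament light chain, and was lost under quantile normalization and median centring. Of 9 neuronal markers 5 were on the array, and 4 of these were above the median. Their summed signal was 56610 to 65160 on neonatal arrays, against 16590 to 42350 on embryonic arrays. All 6 tested probe sets of these neuronal markers were called higher (5 under quantile normalization), as were 4 of 4 of astrocytes and radial glia, whose sum was 12020 to 14050, against 4605 to 7821. In tissue of mixed cells, more cells of a type and more RNA per cell cannot be told apart. The part of these markers in the member differences was not tested.

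A list for cell cycle and DNA repair, chosen in the same way, had 1 higher and 3 lower calls of 9 probe sets (7 genes). This was 44.4%, against 30.7% of all tested probe sets, 14.3% higher and 16.4% lower. The median of the list was -0.22, close to the -0.16 of all tested probe sets. It had 1 higher and 2 lower calls under quantile normalization and median centring. Fbxo5, Trim59 and Rnf168 were the lower ones and Trim37 the higher one. Of 15 proliferation markers 4 were on the array, and 3 of these were above the median. Their summed signal was 1156 to 1769 on neonatal arrays, against 2219 to 6494 on embryonic arrays. Their 3 tested probe sets, of Mcm5, Tyms and Top2a, were all called lower, with 1 of 3 called under quantile normalization and median centring, and their part in the member differences was not tested. Of a list for the immunoproteasome and interferon response, 2 probe sets of Rnf213, a large RING protein, were tested. Between neonatal and embryonic brain 0 were called by limma, 0 of them with an unadjusted p below 0.05. Between 15.5 and 13.5 dpc they were at -1.75 and -0.49, with 0 called by limma and 1 at an unadjusted p below 0.05.

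Between 15.5 and 13.5 dpc, 11 member probe sets were called higher and 2 lower at 15.5 dpc (5.31%), against 6.59% of all tested probe sets, 3.52% higher and 3.07% lower. The median was 0.03 for members and -0.02 for all. Fbxo41 had the largest rise, with 2313 and 2280 at 15.5 dpc, against 205.2 and 1027 at 13.5 dpc in the probe set whose neonatal and embryonic arrays overlapped (2.14 ± 0.43), and 1.77 ± 0.25 in its other probe set. Ube2ql1 rose by 2.05 ± 0.23 and Trim9 by 1.66 ± 0.26. The remaining rises were of Rnf182, a brain-rich ligase (1.32 ± 0.19), Rnf180 (1.30 ± 0.28), Klhl32 (1.29 ± 0.18), Rnf130 (1.25 ± 0.21), Trim37 (1.06 ± 0.19), Ube2n (1.02 ± 0.20) and Ube2v2 (0.97 ± 0.19). Apart from Fbxo41, those of these genes with several tested probe sets were called in 1 only. Their lowest probe sets, uncalled, were at 0.67 for Ube2ql1, 0.83 for Trim9, 0.53 for Rnf182, 0.07 for Rnf180, 0.18 for Klhl32 and 0.05 for Rnf130. Rnf182 was at 0.30 ± 0.13 between neonatal and embryonic brain, uncalled, with 1156 to 1880 in neonatal brain beside 1748 and 2003 at 15.5 dpc.

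Fbxo5 fell by 1.72 ± 0.28 between these ages. Klhl41, a receptor known from skeletal muscle, was also called lower (adjusted p = 0.0116) and had 16.2 and 57 at 15.5 dpc, below the array medians, against 298.4 and 392.2 at 13.5 dpc, which makes it at least 1.28-fold lower at 15.5 dpc; the neonatal arrays gave 34.9 to 59. Of 4 muscle markers, Ckm was on the array, with 199.7 and 125.6 at 15.5 dpc against 140.8 and 127.3 at 13.5 dpc, below the median of each of these arrays. Of the 13 calls 0 held in all 8 runs that left out 1 array, which called 0 to 9 members higher and 0 to 2 lower, and at most 1 higher unless the array left out was maternal-7 at 13.5 dpc. All 13 kept their sign in these runs. The neuronal list, chosen with earlier results of these data in hand, had 4 higher calls, of 3 genes, and 0 lower of 22. This was 18.2%, against 6.59% of all tested probe sets, 3.52% higher and 3.07% lower. The median of the list was 0.76. Of the neuronal marker probe sets 3 of 6 were called higher, and their part in the member differences was not tested. The contrasts of stage share the embryonic arrays, so their calls are not independent.

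Probe sets of the same gene often differed. Of 57 genes with several tested probe sets, 25 had both signs between neonatal and embryonic brain, and the median range within a gene was 0.42, with a largest of 2.02 for Trim9. In 27 of these genes at least 1 probe set was called, and in 8 each one was. Klhl32 and Trim2 were called in both directions. Klhl32 rose by 0.85 ± 0.13 and 0.82 ± 0.20 in its bright probe sets, and fell in a dim one that was at least 1.59-fold lower in neonatal brain, a call lost without 4 of the 8 arrays (largest adjusted p = 0.0888). Trim2 rose by 0.96 ± 0.23 in its bright probe set (7710 to 9106 on neonatal arrays, against 2301 to 8057 on embryonic arrays) and was at -0.82 ± 0.22 in a probe set of 50.6 to 388.1. Rnf130 was called higher in 2 probe sets, and the third, at 2932 to 3083 on neonatal and 2628 to 3621 on embryonic arrays, was at -0.02 ± 0.14. The second probe set of Rnf180 was at -0.07 ± 0.14. Which transcripts each probe set detects was not examined.

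**Figure D3:**
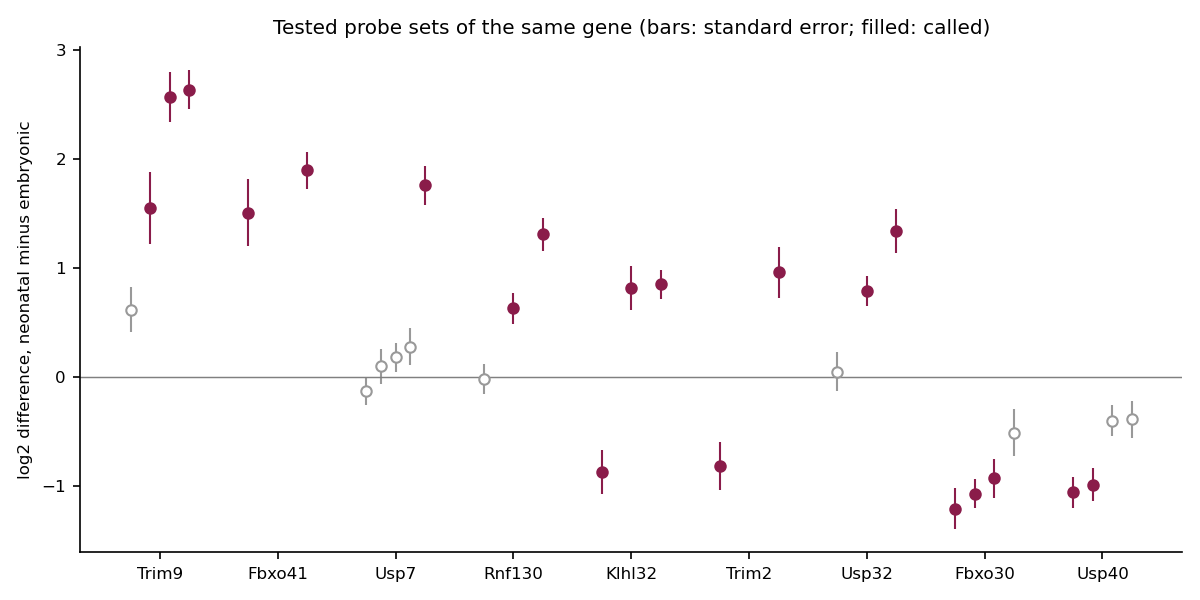
Log2 difference, neonatal minus embryonic, of each tested probe set of 9 genes, with bars for the standard error; filled points were called. Usp7 has 1 called probe set, with dim embryonic signals, and 4 between -0.13 and 0.28, and Klhl32 and Trim2 have called probe sets on both sides of 0.

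Between cortex and cerebellum 0 member probe sets were called by limma, 13 had an unadjusted p below 0.05, and 0.325% of all tested probe sets were called. The medians were -0.01 for both. The largest member differences, picked after their values were seen, were of Trim2 (its dim probe set, 1.27 ± 0.31, adjusted p = 0.296), Trim66 (-1.10 ± 0.28, adjusted p = 0.343), Fbxo44 (-1.06 ± 0.40, adjusted p = 0.584) and Klhl1, a neuronal actin-binding protein (-1.0 ± 0.24, adjusted p = 0.296). Klhl1 had 552.8 and 462.3 in cortex, against 1365 and 830.5 in cerebellum. Trim9, Fbxo41 and Usp32 lay between -0.13 and 0.13 in each tested probe set.

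Between the duplications 0 member probe sets were called by limma in paternal-7 against maternal-7, beside 0.00756% of all tested probe sets, and 20 members had an unadjusted p below 0.05 (1147 of all). The median was -0.05 for members and 0.01 for all. The difference had 1 sign in all 4 contexts, higher in paternal-7, for 14 members (5.71%, against 9.67% of all probe sets), and lower for 25 (10.2%, against 9.08%). The largest such difference was of Rnf41, also called Nrdp1, a ligase of the receptor ErbB3. It gave 246.5 in paternal-7 and 640.4 in maternal-7 cortex, 341.3 and 795 in cerebellum, 529.8 and 896.4 at 15.5 dpc, and 435.7 and 840.1 at 13.5 dpc. Every paternal-7 array was below every maternal-7 array, which holds for 0.816% of members and 0.779% of all probe sets, yet the difference of -0.96 ± 0.14 had an adjusted p of 0.532. Rnf41 lies on chromosome 10, outside both duplicated chromosomes.

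Klhl24, a receptor that binds kainate receptors, was lower in paternal-7 in all 4 contexts in 3 of 4 probe sets. The brightest of these gave 1687 and 2395 in cortex (paternal-7, maternal-7), 1455 and 2149 in cerebellum, 1818 and 2453 at 15.5 dpc and 1231 and 1777 at 13.5 dpc, a difference of -0.49 ± 0.12 (adjusted p = 0.532). The other 2 were at -0.50 and -0.63, and the fourth, brighter still, was at -0.15 ± 0.15. Ube2b, an E2 of DNA repair, was at -0.66 ± 0.16, Ube2v2 at -0.47 ± 0.13, Rnf122 at -0.50 ± 0.14, Trim23 at -0.59 ± 0.25 and Fbxl21, a receptor for the clock protein cryptochrome, at -0.72 ± 0.27. On the other side were Fbxw18 (0.78 ± 0.27), Fbxw16 (0.52 ± 0.15), Trim37 (0.37 ± 0.13), Usp24 (0.35 ± 0.15), Rnf213 (0.34 ± 0.16), Rnf25 (0.30 ± 0.14) and Klhl20 (0.29 ± 0.13), with adjusted p between 0.535 and 0.584. The other probe sets of Fbxw16, Usp24 and Rnf213 were at 0.04, -0.12 and -0.41.

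**Figure D4:**
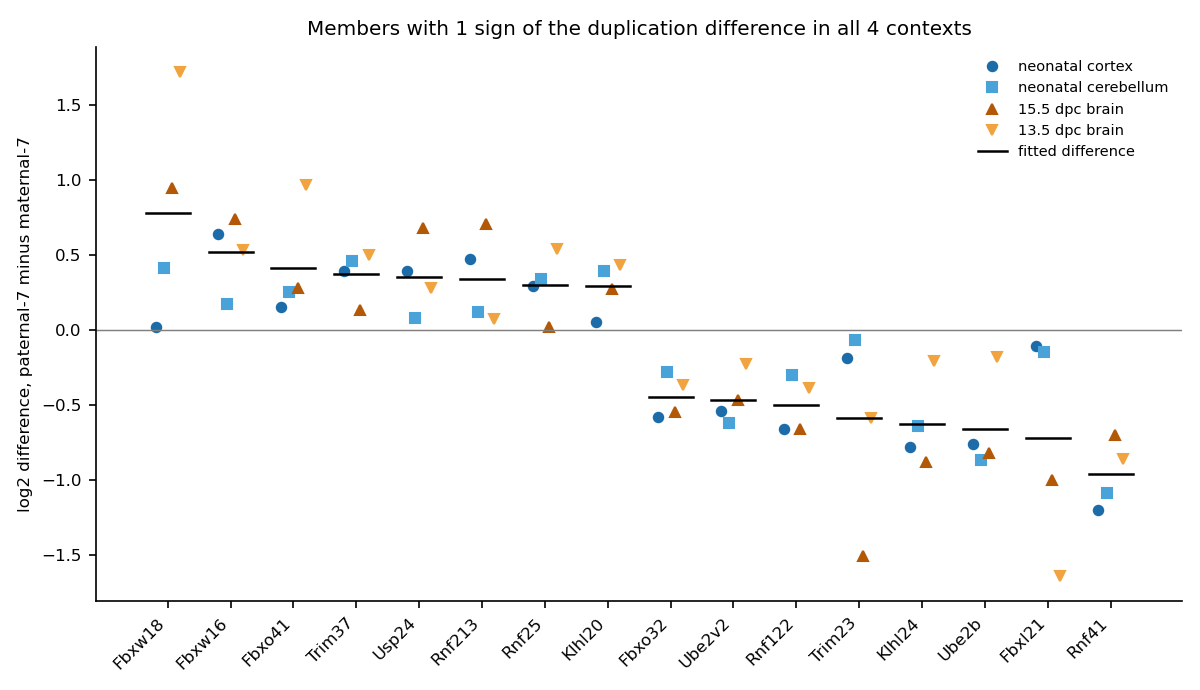
Log2 difference, paternal-7 minus maternal-7, in each context (points) for the member genes with the largest differences of 1 sign in all 4 contexts, with the fitted difference as a bar. Rnf41 lies between -1.2 and -0.70 in the 4 contexts, and no member was called.

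Fbxo41 differed between its probe sets. One was higher in paternal-7 in all 4 contexts (0.41 ± 0.17), and the other gave 2038 and 4404 in cortex (paternal-7, maternal-7), 2179 and 4959 in cerebellum, 2313 and 2280 at 15.5 dpc and 205.2 and 1027 at 13.5 dpc, which is lower in 3 of 4 contexts (-1.07 ± 0.31). Neither was called. The difference of the duplication effect between neonatal and embryonic brain was called for 0 members and 0% of all probe sets by limma, with 25 members at an unadjusted p below 0.05 (1209 of all). Summed markers of cerebellum were lower in paternal-7 in each context, at 4806 and 7828 in cortex, 13360 and 14720 in cerebellum, 5374 and 10640 at 15.5 dpc, and 4295 and 6835 at 13.5 dpc (paternal-7, maternal-7), and their part in the member differences was not tested.

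On chromosome 7, 22 probe sets of 16 genes were tested, 11 were above 0, and the median was -0.02. The largest differences were of Trim6 (0.35 ± 0.26), Psma1 (-0.25 ± 0.13), Usp31 (0.22 ± 0.13) and Rnf225 (-0.21 ± 0.24), with adjusted p of 0.614 to 0.794. On chromosome 15, 5 probe sets of 3 genes were tested, with a median of -0.08. Fbxo32, or atrogin-1, known from muscle wasting, gave 411.6 and 646.5 in cortex (paternal-7, maternal-7), 301.4 and 378.5 in cerebellum, 220.4 and 350.8 at 15.5 dpc and 340.6 and 458.7 at 13.5 dpc, and was lower in paternal-7 in all 4 contexts (-0.45 ± 0.13, adjusted p = 0.535). Rnf139, a ligase of the endoplasmic reticulum, was at 0.22 ± 0.18 and -0.14 ± 0.14, and Fbxl7 at -0.08 ± 0.15 and 0.06 ± 0.15. Which of these genes lie within the duplicated proximal segments was not examined.

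Within single contexts, members above the 75th percentile on either array that differed at least 2-fold between the duplications numbered 3 of 149 in cortex (2.01%, against 1.49% of all such probe sets), 3 of 151 in cerebellum (1.99%, against 1.32%), 6 of 159 at 15.5 dpc (3.77%, against 3.87%) and 3 of 147 at 13.5 dpc (2.04%, against 3.31%). These are single pairs of arrays without a test. In cortex, Ube2r2, an E2 partner of cullin ligases, had 2099 in paternal-7 and 971.9 in maternal-7 in 1 probe set, and 2701 and 2700 in its other, brighter one. In cerebellum, Fbxo44 had 251.9 in paternal-7 and 1038 in maternal-7, and 172.6 and 342.7 in its other probe set. At 15.5 dpc, Rnf213 gave 195.7 and 766.1 and Trim23, a ligase with an ARF domain, 212.9 and 714.1 (paternal-7, maternal-7), and the other tested Rnf213 probe set gave 544.5 and 311. Trim45 had 383.1 in paternal-7 and 1108 in maternal-7 at 13.5 dpc.

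Other genes of the pathway, outside the symbol rule, had 9 higher and 15 lower calls of 80 tested probe sets between neonatal and embryonic brain (30%, against 30.7% of all). The anaphase-promoting complex, the ligase that Fbxo5 inhibits, had 5 lower and 0 higher calls of 12 probe sets of 7 genes. Among all tested probe sets 16.4% were called lower and 14.3% higher. The median of the complex was -0.49, against -0.16 for all, with 3 lower calls after median centring and 7 under quantile normalization. Without further scaling the 12 were all below 0, whereas 38.1% of all tested probe sets were above it. In the complex 1 was above 0 under quantile normalization and 3 after median centring. Its member Anapc10 had 993.7 and 1202 in cortex and 1656 and 1378 in cerebellum, against 3145 and 3195 at 15.5 dpc and 2193 and 2728 at 13.5 dpc (-1.08 ± 0.15). Partners of cullins had 3 higher and 3 lower calls of 10, with Cand2, an exchange factor, at -1.62 ± 0.24 and -1.10 ± 0.22 and Btrc, a receptor of beta-catenin, at 0.95 ± 0.16 in its bright probe set and at -0.32 and -0.52 in the others, uncalled. HECT ligases had 4 higher and 3 lower of 23 (7 and 1 after median centring). E1 enzymes had 0 higher and 2 lower of 5, both of Uba6 (0 and 1 after median centring), and enzymes of SUMO and NEDD8 had 0 higher and 2 lower of 13 (0 and 0 after median centring). Other deubiquitinases had 1 higher and 0 lower of 16, and the ubiquitin genes themselves had 0 probe sets on the array.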

How the data were processed

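RNA from 8 mouse brain samples was measured on Affymetrix 430B arrays. The deposited values are MAS5 signal intensities, per the submitters' processing notes, with the version not given in the sources used here; in the values, each array's trimmed mean was 499.9, so the authors' scaling was global and cannot show a change of all genes at once. The 64 control probe sets were set aside. Precision is limited by how many arrays there are.

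Members were matched by symbol to the platform annotation (14661 probe sets with 1 symbol, 7605 with none, 245 with several), and 214 of 215 genes were found in RefSeq (GRCm38.p6). Members and lists were chosen with earlier results of these data known. Signals were taken as log2(signal + 58.5), where 58.5 is the median over arrays of their 20th percentile, and 13221 of 22511 probe sets were above the array median on at least 2 arrays. In limma 3.58.1 (R 4.3.3), an additive model with a term per context and 1 for the duplication (3 residual degrees of freedom) gave the 4 contrasts, and a model with the interaction (2 residual degrees of freedom) gave the difference of duplication effects. The Benjamini-Hochberg adjustment ran over all tested probe sets, with a threshold of 0.05. The labels do not say whether the samples came from separate animals, so the p-values may not measure spread between animals. They rest on departures from additivity of context and duplication, which mix spread between arrays, possibly technical, with any real interaction. The procedure was tested on simulated data.

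Named genes were the called members with the largest differences, up to 12 per direction for each contrast between contexts, 8 per direction among those of 1 sign in 4 contexts for the duplications, the cullins and proteasome subunits, the 4 largest on each duplicated chromosome, the 3 largest per direction within a context, and up to 4 of each list. Where a group was below the array median on all its arrays, a called difference is given as "at least N-fold", with the dim arrays set to their median. As alternatives, values were quantile normalized, centred on array medians, given a floor of 1 or a pseudocount of 16, and left unfiltered or filtered at the 75th percentile; limma was run with trend and robust fitting and without single arrays or pairs, and medians were also taken over 1 probe set per gene.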

Additional observations from a re-analysis of the deposited data

How the results depend on the processing

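Under each alternative for which calls were counted (1 probe set per gene was run for medians only), limma called 0 members between the duplications, between cortex and cerebellum and for the difference of duplication effects. The members' median duplication difference was -0.09 after median centring, -0.03 without both embryonic pairs and -0.07 to -0.03 when 1 pair was left out. Their cortex minus cerebellum median was -0.04 to 0.01 when 1 array was left out. Between 15.5 and 13.5 dpc, the calls higher and lower were 7 higher with a floor of 1, 4 and 1 without a filter, 20 and 5 with the strict filter, and 19 and 6 with trend and robust fitting. Leaving out 1 array gave 0 to 9 higher, 0 to 2 lower and a median of 0.02 to 0.09. Between neonatal and embryonic brain, median centring gave 20 lower and a median of 0.13, the strict filter a median of 0.06 and 1 probe set per gene 0.02; leaving out 1 array gave 26 to 42 higher, 16 to 33 lower and a median of -0.05 to 0.01. The fewest calls, 26 and 16, came without the paternal-7 cortex array. Signs turned for some uncalled members. For the duplications, Rnf225 was 0.07 and Rnf139 -0.00 without both embryonic pairs, and with 1 pair left out Rnf225 ranged from -0.33 to 0.10 and Fbxl7 from -0.21 to 0.01. Between neonatal and embryonic brain, Psmd2 was 0.11 under quantile normalization and median centring, and with 1 array left out ranged from -0.48 to 0.36 and Rnf213 from -0.74 to 0.12. Between 15.5 and 13.5 dpc Ube2t, an E2 enzyme of DNA repair, ranged from -1.72 to 0.64. The cause was not tested in these cases. Within contexts, counts of members at least 2-fold different were 2 to 7 under 4 settings added after seeing the data. The context term pairs the 2 duplications of each context in the additive fit; a further block by replicate number could not be fitted, since each group had 1 array, numbered 1. Members below the array median carry only bounds.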
